A study of Mus musculus with 4 samples.

Results

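The 10 imprinted genes described here lie outside the imprinted cluster of distal chromosome 7. They are Dlk1, Meg3 and Rian on chromosome 12, Plagl1 on chromosome 10, Peg3 on proximal chromosome 7, Peg10 and Mest on chromosome 6, Grb10 on chromosome 11, and Nnat and Gnas on chromosome 2. The genes were taken by name, out of 33832 protein-coding and long noncoding RNA genes with a usable position. Every CTCF peak whose summit lay within 50 kb of a gene body in mm10 (GRCm38) was counted, and overlapping peaks of different lists were merged to 1 site. This gave 41 sites among 56026 CTCF sites in all.

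The study mapped CTCF and RAD21 by ChIPmentation, chromatin immunoprecipitation in which Tn5 transposase adds the sequencing adapters on the beads. The material was pooled mouse gastruloids, embryo-like aggregates of stem cells, fixed 96 h after aggregation. There was 1 library for each of 4 labelled groups, with CTCF mapped in wild type and in 2 HoxB mutants and RAD21 mapped in the first of these mutants. Both mutants carry Del, a deletion of HoxB, on 1 chromosome 11, and Del(i9-13), which removes the interval between Hoxb9 and Hoxb13, on the other. The first mutant, called InsCBS5-10 below, also has the inserted CTCF binding sites Ins(CBS5-10) on that second chromosome. The other, DelCBS7-10, has the same insertion with Del(CBS7-10), which takes out inserted sites 7 to 10. The sources used here do not say whether a mutant line was a single clone. A further RAD21 list, which its peak names call wild type, has no sample description among the labels. It may be a reused data set, so it is treated as the authors' list only, and the counts of sites with RAD21 are also given without it. Peak lists hold no expression, so the tissue label could not be checked against marker genes.

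Imprinted genes are transcribed mainly or only from the copy inherited from 1 parent. The choice is set by DNA methylation placed in the egg or sperm at imprinting control regions, and it is kept in the embryo. CTCF, a zinc-finger protein that binds DNA and stops the loop-extruding cohesin complex, binds only the unmethylated copy at some control regions, and RAD21 is a subunit of cohesin. The peaks here are not split by parental copy.

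The sequences below show what lay under peaks at or next to gene starts and under the site inside Rtl1. They are RefSeq sequences of GRCm38.p6, written 5′ to 3′ on the strand of the gene. For the hairpin this is the strand of the microRNA, not that of Rtl1. Capitals in the promoter stretches mark AGGGGGC or AGGTGGC, each a part of the CTCF core motif, on either strand.
Peg3, the stretch between the gene bodies of Peg3 and Usp29 under a RAD21 peak, chr7:6730463-6730558, minus strand: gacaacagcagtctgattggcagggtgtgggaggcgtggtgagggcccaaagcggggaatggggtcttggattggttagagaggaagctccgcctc
Nnat, the stretch just before the start under a RAD21 peak, chr2:157559828-157560077, plus strand: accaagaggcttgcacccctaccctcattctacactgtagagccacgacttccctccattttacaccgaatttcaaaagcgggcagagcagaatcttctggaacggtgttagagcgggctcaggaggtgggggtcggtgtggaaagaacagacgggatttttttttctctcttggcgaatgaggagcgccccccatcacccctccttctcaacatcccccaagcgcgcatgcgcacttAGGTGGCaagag
Gnas, the stretch under a wild-type CTCF peak just before a start inside the locus, chr2:174329756-174329793, plus strand: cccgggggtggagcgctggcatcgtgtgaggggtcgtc
The mmu-miR-432 hairpin inside Rtl1, chr12:109594956-109595030, plus strand, with the mature microRNA in capitals: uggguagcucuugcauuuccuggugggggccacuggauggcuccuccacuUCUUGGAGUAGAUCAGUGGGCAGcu
Its mature form, with the seed (bases 2 to 8) in capitals: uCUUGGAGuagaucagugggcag
AGGGGGC was found in 10.6% and AGGTGGC in 6.15% of 32851 listed promoters, taken from 250 bases before to 50 after each start, and 5259 of them held either. The 9 genes with an entry had 16 listed promoters, and 6 of these held either motif, 1 at Rian, 1 at Nnat and 4 at Gnas. The Gnas promoters of the starts at 174327749 and 174327768 overlap and list the same pair of motifs. The 6 are therefore not all separate stretches. The printed Gnas and Peg3 stretches hold none. Peg10 has no entry in the promoter table.

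All 10 genes had a wild-type CTCF peak within 50 kb, where 88.2% of all tested genes had one. The median was 4 sites per gene, the same as over all genes, and 3.16 sites per 100 kb of window against 3.03 over all genes. Mest had 1 site, and Meg3 and Gnas had 9 each. Of the 41 sites, 19 lay inside the body of a member and 6 fell in the windows of 2 members, all of them in the domain of Dlk1, Meg3 and Rian. Median density around these genes was therefore close to that over all genes. Among the 10 it ran from 0.870 sites per 100 kb at Mest to 6.88 at Meg3. The quartiles were 2.70 and 4.36 at these genes, against 1.55 and 5.18 over all genes.

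**Figure D1:**
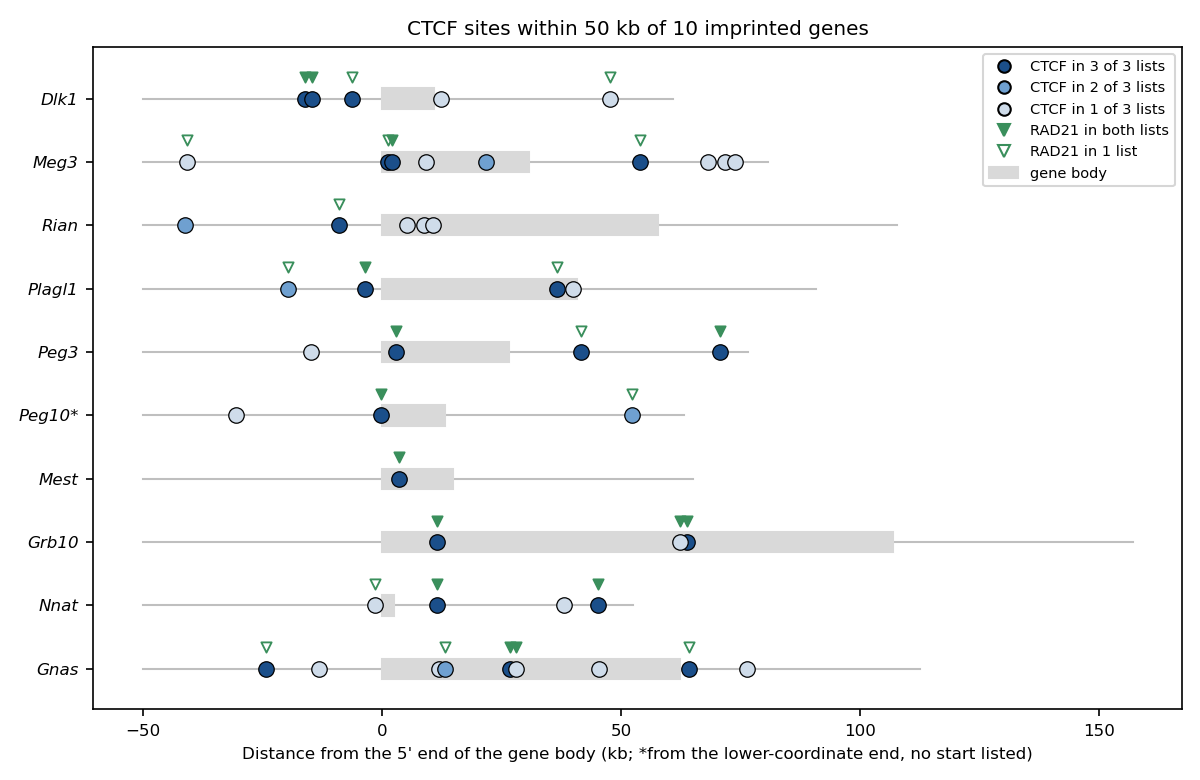
CTCF sites along each gene, drawn as distance in kb from the 5′ end of the gene body (for Peg10 from the lower-coordinate end), with circles shaded by the number of CTCF lists that hold the site and triangles for RAD21 calls. The 20 sites in all 3 CTCF lists each have a RAD21 triangle, and most pale circles have none. Of these 20 triangles, 13 stand for both RAD21 lists and the rest for the list named wild type alone. The share of all shared sites with RAD21 in any list is not given here.

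Strength is given as fold enrichment, the signal at the summit over the local background, as the authors deposited it. Fold differs in scale between libraries, so each peak was also ranked within its own list as a percentile, with 100 for the strongest. The 36 wild-type peaks at these genes had folds from 2.57 to 18.0 and a median percentile of 52.0, near the middle of the wild-type list. The 24 peaks in InsCBS5-10 and the 25 in DelCBS7-10 had median percentiles of 43.9 and 48.7. RAD21 in InsCBS5-10 had 17 peaks here with a median percentile of 74.6. The RAD21 list named wild type had 52, with a median of 37.3. That list holds 59484 peaks with a median width of 480 bp, against 19610 and 301 bp for RAD21 in InsCBS5-10. The part of this difference in the number of calls was not tested. Grb10 peaks, on chromosome 11, are included in the percentile medians above.

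Of the 41 sites, 20 (48.8%) were called in all 3 CTCF lists, against 49.0% of all CTCF sites. Another 13 (31.7%) were called in wild type alone, against 24.4%. The wild-type list is also the longest, with 47931 peaks against 34499 and 36589, and read depth is unknown, so a site without a peak in a list is one where no peak was called. RAD21 overlapped 15 sites (36.6%) in both of its lists, against 32.3% of all sites. The RAD21 list of InsCBS5-10 alone also gave 15, against 33.3%. Among the 20 sites shared by the CTCF lists, 13 (65.0%) had RAD21 in both lists, against 55.9% of all shared sites. The list of InsCBS5-10 alone also gave 13, against 56.7%. Each of these shares lay within 10 percentage points of its background, and no test was made on 1 library per group.

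Sites with RAD21 in both lists were the stronger CTCF sites in wild type. Their 15 wild-type peaks had a median fold of 9.69 and percentiles from 48.9 to 99.6. These include 3 Grb10 sites on chromosome 11, where fold is not comparable with that elsewhere, and the lowest percentile is at Grb10. The 12 sites with RAD21 in the list named wild type alone had a median fold of 5.17, with percentiles from 36.1 to 70.1. The 9 wild-type peaks with no RAD21 had folds up to 3.84 and percentiles up to 29.6, which did not overlap the other 2 classes. None of these 9 reached a deposited −log10 q of 5, and all 27 others did. Of all wild-type CTCF peaks, 72.6% reached it. The same split by RAD21 call over all wild-type peaks is not given here. The split above is therefore not read as particular to these genes. Without the list named wild type, the 21 wild-type peaks with no RAD21 in InsCBS5-10 had percentiles from 1.97 to 70.1 with a median of 37.0, which overlapped those of the 15.

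**Figure D2:**
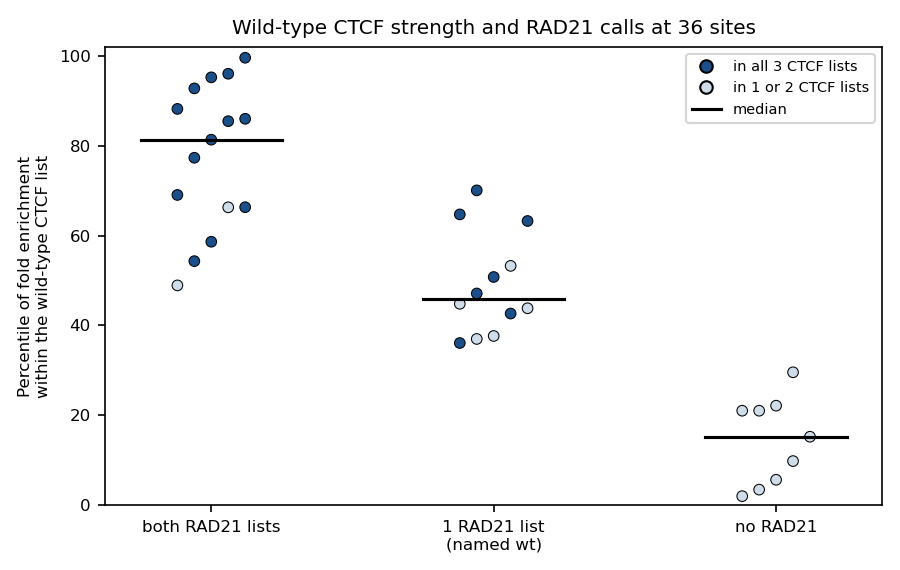
Each point is 1 of the 36 wild-type CTCF peaks, placed by its percentile of fold enrichment within the wild-type list and grouped by RAD21 calls, with a line at the median. Medians were 81.4 with RAD21 in both lists, 46.0 with RAD21 in the list named wild type alone and 15.2 with no RAD21. The group with both lists includes the 3 Grb10 sites on chromosome 11.

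Close to the starts, the genes differed from each other. Mest and Gnas, 2 of the 9 genes with a listed start (22.2%), had a wild-type CTCF summit within 1 kb, against 13.9% of 26444 genes. The Gnas peak had a −log10 q of 3.05, and with a −log10 q of 5 required only Mest was left. Within 5 kb it was 7 of 9, against 33.5%, with Meg3, Plagl1, Peg3, Grb10 and Nnat added. Dlk1 and Rian had none at that distance. Distances below are from the summit to the nearest listed start, negative where the site lies upstream. Where 3 CTCF folds follow each other they are in the order wild type, InsCBS5-10, DelCBS7-10, and a pair of RAD21 folds is in the order InsCBS5-10, list named wild type.

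Dlk1 encodes a transmembrane protein of the Notch ligand family and is expressed from the paternal copy. Its window held 5 CTCF sites, none inside the gene, and 3 upstream sites were called in all 3 CTCF lists. The farthest of them, at −16.4 kb (chr12:109436282-109436585), had folds of 7.86 in wild type against 5.44 in InsCBS5-10 and 3.70 in DelCBS7-10, with RAD21 at 6.46 in InsCBS5-10 and 6.17 in the list named wild type. The next, at −14.9 kb, had CTCF folds of 7.50, 5.19 and 5.98 in the same order and RAD21 folds of 4.30 and 4.65. The site at −6.57 kb had CTCF folds of 8.00, 5.72 and 5.23, and RAD21 was called only in the list named wild type, at 2.98. The 3 were thus of like strength in wild type, and cohesin was called in both lists at the outer pair. A weak peak at 12.0 kb, beyond the gene, was called in InsCBS5-10 alone at 3.37.

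Between Dlk1 and Meg3, inside the lncRNA gene Gm34081, a CTCF peak was called in wild type alone (chr12:109500181-109500399, fold 4.45). The RAD21 list named wild type held a peak there of fold 8.60, at percentile 89.4, while the RAD21 list of InsCBS5-10 held none. Neither mutant list nor the RAD21 library of InsCBS5-10 had a call at this site, 47.5 kb from the Dlk1 start and −40.7 kb from that of Meg3. In the same interval, 13.4 kb before Meg3, the RAD21 list named wild type held a peak without CTCF (chr12:109527318-109528050, fold 4.11, −log10 q 18.6). Its −log10 q was the highest of the 25 RAD21 peaks without CTCF that this list held around these genes.

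Meg3, a long noncoding RNA expressed from the maternal copy, held the strongest CTCF site of the 9 genes on chromosomes other than 11. It lay 2.07 kb inside the gene (chr12:109542852-109543210), with folds of 18.0 in wild type against 11.4 in InsCBS5-10 and 10.8 in DelCBS7-10. RAD21 there had folds of 11.5 in InsCBS5-10 and 10.1 in the list named wild type. The site stood at or above percentile 98.1 in every CTCF list and above percentile 95 in both RAD21 lists. A second site lay 1.28 kb inside the gene, under 1 kb from the first, with CTCF folds of 5.28, 5.19 and 5.92. RAD21 was called there at 2.81, in the list named wild type only. The pair differed in fold by more than 3-fold in wild type and by less than 2-fold in DelCBS7-10, but folds of different lists are not on one scale. By percentile within the list, the stronger and the weaker site stood at 99.6 and 47.1 in wild type. In DelCBS7-10 they stood at 98.4 and 61.1.

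Rian, the long noncoding RNA downstream of Meg3 that carries small nucleolar RNAs, was the member with no site that had RAD21 in both lists. The site in its window in all 3 CTCF lists lay at −8.91 kb, inside Rtl1, a gene derived from a retrotransposon and expressed from the paternal copy. This site (chr12:109594689-109595317) had CTCF folds of 7.11 in wild type against 6.33 in InsCBS5-10 and 7.60 in DelCBS7-10, with RAD21 at 6.20 in the list named wild type alone. It spans the mmu-miR-432 hairpin printed above, whose last base lies 1 base before the wild-type summit at position 109595031. The hairpin is placed inside Rtl1 by position only. The parental copy named for Rtl1 is not a statement about the microRNA. Inside Rian, 3 peaks were called in wild type alone, at 5.27, 8.80 and 10.8 kb from the start, with folds of 3.84, 3.42 and 2.67. None reached a −log10 q of 5 or overlapped RAD21. A site inside Meg3, 41.2 kb before Rian, was called in both mutants and not in wild type, with folds of 3.92 and 4.16. It was the 1 site of the 41 (2.44%) with that pattern, against 1.44% of all CTCF sites.

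Plagl1 encodes a zinc-finger transcription factor expressed from the paternal copy. The strongest of its 4 sites lay 3.42 kb before the start (chr10:13087095-13087576), with CTCF folds of 12.2 in wild type against 7.90 in InsCBS5-10 and 6.37 in DelCBS7-10. RAD21 was at 11.2 in InsCBS5-10 and 11.6 in the list named wild type, at percentiles 94.2 and 98.7. Within Plagl1, at 36.7 kb, a weaker site had CTCF folds of 4.88, 3.68 and 4.23 and RAD21 at 6.67 in the list named wild type alone. Upstream at −19.6 kb, in Gm40602, CTCF was called in wild type at 4.96 and in InsCBS5-10 at 5.11 but not in DelCBS7-10, and RAD21 in the list named wild type at 2.72. The remaining site, at 39.98 kb, was called in wild type alone at 3.15. Plagl1 therefore had 1 strong site with cohesin upstream of its start, and the others stood below percentile 44 of the wild-type list.

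Peg3 encodes a zinc-finger protein expressed from the paternal copy, and shares its start region with Usp29, which runs the other way. A site 2.93 kb inside Peg3 (chr7:6727173-6727901) had CTCF folds of 9.69 in wild type against 7.51 in InsCBS5-10 and 5.89 in DelCBS7-10. RAD21 there was comparatively low, at 4.44 in InsCBS5-10 and 2.64 in the list named wild type, percentiles 22.1 and 6.70. Strong CTCF and low-ranked RAD21 thus occurred together at this site. Downstream, a site in the imprinted gene Zim1 (41.5 kb) had CTCF folds of 7.30, 8.00 and 8.86, and RAD21 at 8.65 in the list named wild type alone. The site in Zim2 (70.6 kb) had CTCF folds of 6.06, 5.92 and 8.67 and RAD21 at 10.4 and 8.50. These were the sites of this window whose highest fold was in DelCBS7-10, apart from a weak peak in Usp29 at −14.9 kb that was called in that list alone at 3.14.

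The stretch between Peg3 and Usp29 printed above lay under a RAD21 peak of the list named wild type (chr7:6730440-6730655, fold 2.45) with no CTCF peak in any list. A broader RAD21 peak without CTCF lay 1.49 kb inside Peg3 in that list (fold 3.002, −log10 q 14.0). RAD21 in InsCBS5-10 also had a weak peak without CTCF there, 1.05 kb inside Peg3 (fold 3.19, −log10 q 3.49, percentile 3.81 of its list). Among the 10 genes, only Peg3 had RAD21 peaks without CTCF over the same stretch in both lists.

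Peg10, a gene derived from a retrotransposon that is needed for the placenta, is expressed from the paternal copy beside Sgce. Its main site (chr6:4746953-4747444) lay 0.16 kb from the end of the gene body that faces Sgce. CTCF folds there were 9.03 in wild type against 5.06 in InsCBS5-10 and 5.90 in DelCBS7-10. RAD21 folds were 4.72 and 5.26. All 5 lists thus had a peak where both genes meet. A site 39.1 kb beyond the other end had CTCF folds of 4.39 in wild type and 4.19 in DelCBS7-10, no call in InsCBS5-10, and RAD21 at 3.58 in the list named wild type. A peak in Sgce, 30.4 kb away, was called in wild type alone at 3.38.

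Mest encodes a protein of the hydrolase family and is expressed from the paternal copy. Its single site (chr6:30736967-30737331) lay inside the gene, at −0.93 kb from a listed internal start, and was called in all 5 lists. CTCF folds were 10.4 in wild type against 4.50 in InsCBS5-10 and 5.71 in DelCBS7-10, which are percentiles 85.5, 31.8 and 57.6. RAD21 folds were 9.66 in InsCBS5-10 and 6.91 in the list named wild type, percentiles 86.8 and 79.2. In InsCBS5-10, the genotype with both proteins mapped, RAD21 was thus high in its list and CTCF low in its own.

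Grb10 encodes an adaptor protein that binds insulin-family receptors and holds back growth. It is expressed from the maternal copy in most tissues and from the paternal copy in neurons. Reads were aligned to a genome with 2 versions of chromosome 11, and shared sequence then has no unique place, so fold enrichment at Grb10 is not comparable with that on the other chromosomes. Grb10 lies before the edited HoxB region, and its coordinates are those of mm10. The site 2.10 kb inside the gene (chr11:12025486-12026019) had CTCF folds of 13.1 in wild type against 5.83 in InsCBS5-10 and 3.84 in DelCBS7-10, with RAD21 at 8.14 and 7.19. Deeper in the gene, 54.4 kb from a start, CTCF folds were 10.6, 4.88 and 5.23, with RAD21 at 10.4 and 8.12. Close to it, a further site (chr11:11974984-11975179) had CTCF in wild type alone at 5.47, while RAD21 was called in InsCBS5-10 at 4.12 and in the list named wild type at 4.14. Grb10 was the member whose sites all carried RAD21 in both lists, besides Mest with its 1 site.

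Gnas encodes the stimulatory G protein alpha subunit, in a locus with several starts that are used differently on the parental copies. It had 9 sites, and the strongest in wild type, at chr2:174312228-174312404, was called for CTCF in wild type alone, with a fold of 7.50. RAD21 was nevertheless called there in InsCBS5-10 at 4.69 and in the list named wild type at 5.19. Close by, a site at chr2:174310960-174311194 had CTCF folds of 6.55 in wild type against 3.91 in InsCBS5-10 and 4.404 in DelCBS7-10, with RAD21 at 9.10 and 7.38. The Gnas site at 174312228 and the Grb10 site at 11974984 were the only ones of the 13 in wild type alone with RAD21 in both lists. Each lay beside a site in all 5 lists. The matching share over all 13686 sites in wild type alone is not given here. A site 13.2 kb inside the gene had CTCF at 5.92 in wild type and 5.17 in DelCBS7-10 only, with RAD21 at 3.54 in the list named wild type. Beyond the gene, 18.5 kb from its last listed start, CTCF folds were 5.67, 5.07 and 3.18, with RAD21 at 3.04 in the list named wild type. The peak at −0.24 kb from a start, part of which is printed above, was called in wild type alone at 3.38 and had no RAD21. The other 4 sites had CTCF folds of 4.31 or less in every list.

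Nnat encodes neuronatin, a small membrane protein expressed from the paternal copy, and lies within Blcap. Strong sites lay outside both genes, at 11.6 kb (chr2:157571484-157572111) and at 45.2 kb (chr2:157604809-157605463). The nearer had CTCF folds of 11.01 in wild type against 8.48 in InsCBS5-10 and 6.70 in DelCBS7-10, with RAD21 at 14.1 and 10.2. The farther had CTCF folds of 13.5, 7.98 and 7.41, and RAD21 at 11.9 and 12.1. RAD21 in InsCBS5-10 at the nearer site stood at percentile 99.1 of its list, and the list named wild type at the farther site at percentile 99.2. Before the start, at −1.34 kb in Blcap, CTCF was called in wild type alone at 5.07, with RAD21 at 3.84 in the list named wild type. The printed stretch before the Nnat start lay under a RAD21 peak of that list without CTCF (chr2:157559501-157560137, fold 3.13). The remaining site, at 38.0 kb, had a fold of 2.57 in wild type alone, the lowest CTCF value at any member.

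**Figure D3:**
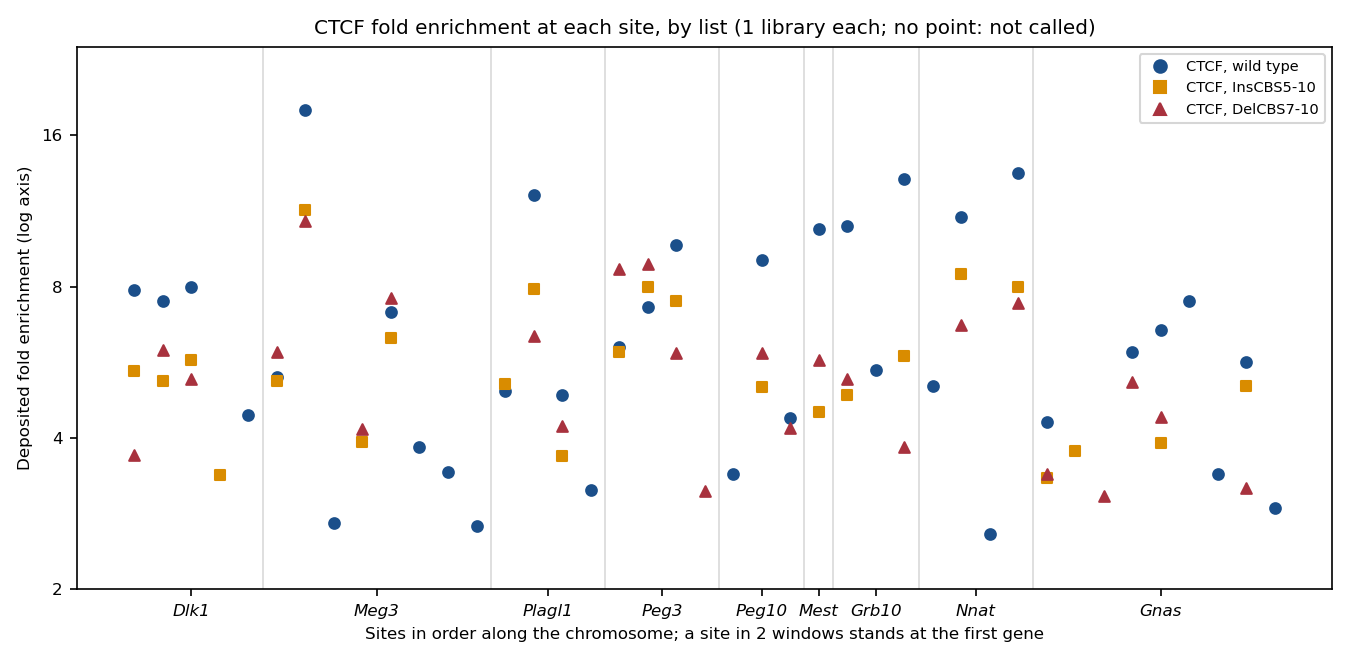
Deposited CTCF fold enrichment (log axis) at each of the 41 sites in order along the chromosome, with 1 symbol per genotype, 1 library each, and no symbol where no peak was called. Sites of Rian that fall in the Meg3 window stand under Meg3, where the site at 18.0 is the highest point.

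RAD21 peaks that overlapped no CTCF peak of any list were mostly found in the list named wild type. It held 25 of them around 9 genes, 48.1% of its 52 peaks here against 43.2% of all its peaks, with folds from 2.11 to 4.23. A −log10 q of 5 was reached by 14 of the 25 (56.0%), against 33.6% of all such peaks of the list. RAD21 in InsCBS5-10 held 2 among its 17 peaks here, against 4.53% of all its peaks, the one inside Peg3 and one at −49.25 kb from the Nnat start with a fold of 3.37. One of the 25 lay 86.3 kb inside Grb10, with a fold of 4.23, which on chromosome 11 is not set against the others. Gnas had 4, among them a peak 11.3 kb inside the gene with a fold of 3.71 and a −log10 q of 12.3.

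To compare genotypes, the 20 member sites in all 3 CTCF lists were ranked among the 27474 sites that all 3 lists share, so that each genotype was ranked over the same set. A shift of 25 percentile points or more was counted. In InsCBS5-10, 1 of the 20 ranked higher than in wild type by that much, against 12.6% of all shared sites, and 4 ranked lower, against 12.5%. In DelCBS7-10, 4 of the 20 ranked higher, against 14.7%, and 5 lower, against 14.7%. The 2 shared Grb10 sites, on chromosome 11, were among those ranked lower in each mutant and also enter the medians. The median shift was −7.98 points in InsCBS5-10 and −14.6 in DelCBS7-10 at the 20 sites, against 0.30 and 0.11 over all shared sites. With 1 library per genotype there is no replicate check on these shifts.

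Off chromosome 11, the largest shift in DelCBS7-10 was at the Zim2 site, 63.4 points, and in InsCBS5-10 at Mest, −56.2 points. The site 2.10 kb inside Grb10 shifted by −83.1 points in DelCBS7-10, which on chromosome 11 is not set against the others. The Grb10 site stood at percentile 91.9 in wild type against 43.7 in InsCBS5-10 and 8.82 in DelCBS7-10. Among the 1436 shared sites of chromosome 11 alone it stood at 90.7, 46.6 and 8.04, so the order was the same within that chromosome. The other shared Grb10 site stood at 76.1, 25.6 and 34.9, and within chromosome 11 at 73.5, 26.3 and 37.1. Mest stood at 75.2, 18.98 and 45.3, and Peg10 at 61.5, 28.7 and 49.4. All 4 sites thus ranked highest in wild type and lower in both mutants. Grb10 shares chromosome 11 with HoxB, the edited region, and Mest and Peg10 lie on chromosome 6. A link of these ranks to the edits was not tested.

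Sites with the opposite order lay at Peg3 and around Meg3. The Zim2 site of the Peg3 window stood at 26.8 in wild type against 45.3 in InsCBS5-10 and 90.2 in DelCBS7-10. The Zim1 site stood at 41.5, 79.2 and 91.4. The Rtl1 site stood at 39.3, 53.0 and 79.6, and the weaker of the pair inside Meg3 at 18.3, 31.6 and 49.6. These 4 sites were the ones that ranked at least 25 points higher in DelCBS7-10. The site inside Peg3 did not follow its neighbours, at 68.3, 72.7 and 49.1. The strong Meg3 site stood near the top of the scale in each, at 99.3, 97.7 and 97.8, where a difference in fold can hardly show as a rank. Lower ranks in DelCBS7-10 were also seen at Plagl1, where the upstream site stood at 87.6, 78.0 and 59.2, and at the −16.4 kb site of Dlk1, at 48.3, 36.1 and 7.13.

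**Figure D4:**
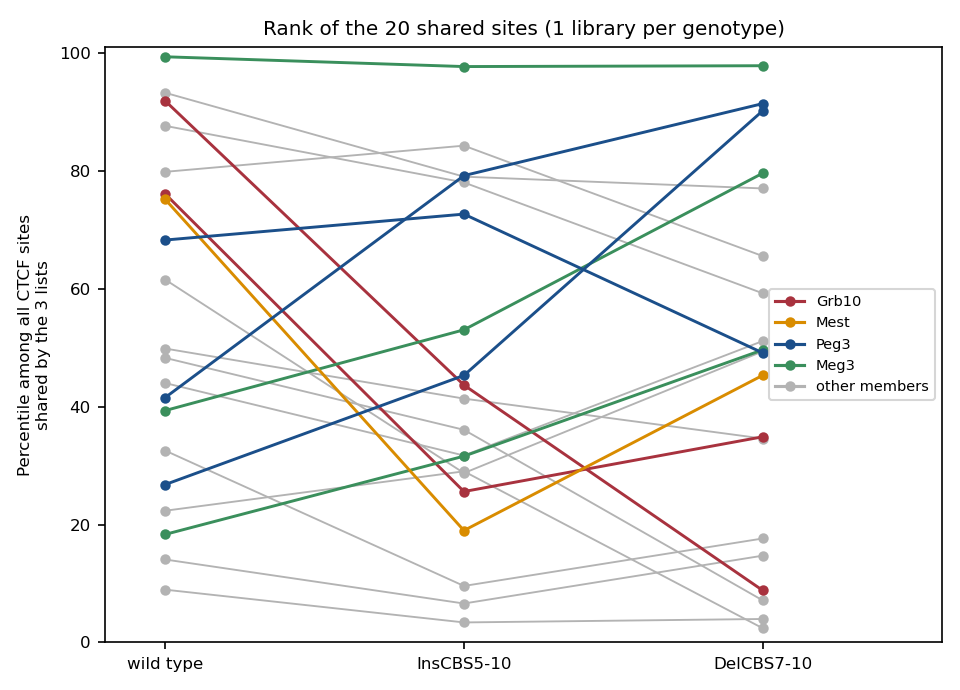
Percentile of CTCF fold enrichment among the 27474 sites in all 3 lists for each of the 20 shared sites (1 line each), by genotype, with 1 library each. The Grb10 and Mest lines run from above 75 in wild type to below 46 in DelCBS7-10, and the Zim1 and Zim2 sites of the Peg3 window run up to above 90. Grb10 lies on chromosome 11, where fold is not comparable with that on the other chromosomes.

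Other imprinted genes gave similar shares. Of 59 listed, 57 matched the annotation, 54 had a wild-type CTCF peak within 50 kb, and Pon2, Pon3 and Dcn had no CTCF site in any list. The median was 5 sites per gene and 2.93 per 100 kb. Of their 196 sites, 19 were also sites of the 10 genes above, 8 of them in the window of Rtl1 and 4 each in those of Zim1 and Blcap. Of the 177 others, 93 (52.5%) were in all 3 CTCF lists and 65 (36.7%) had RAD21 in both lists, the same number as in the list of InsCBS5-10 alone, against 48.8% and 36.6% at the 10 genes.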

How the data were processed

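The data were peak lists of 4 labelled libraries, 1 per group, and 1 further RAD21 list. Per the submitters' processing notes, cutadapt 4.1 and MACS2 2.2.7.1 were used on mm10, with aligner, control and caller options not given in the sources used here. For every peak the authors deposited a score, a fold enrichment (a ratio), a −log10 p and a −log10 q, computed within its library. Read depth is unknown.

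Summits sharing an interval were merged. The copy of chromosome 11 that lacks HoxB, and genes on chromosome 11 from Hoxb13 on, were not used. Peaks overlapping by 1 bp or more were 1 site. No artifact-region list was applied. Python 3.11.15, pandas 2.3.3 and numpy 2.4.6 were used, and the code was checked on simulated peaks. No test was possible with 1 library per group. All sites of a member were named where there were up to 6, otherwise the 4 strongest in wild type, the nearest to a start, and those whose CTCF calls differed with a −log10 q of 5 or more. The rank-shift threshold was chosen after the data were seen. Members and gene lists were chosen with earlier results of these data known.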

Additional observations from a re-analysis of the deposited data

How the results depend on the processing

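Keeping only peaks whose −log10 q was at least 5 left 27 of the 41 member sites, and 1 gene in place of 2 with a wild-type summit within 1 kb of its start. Of these 27 sites, 15 (55.6%) were in all 3 CTCF lists, against 58.9% of all sites under that filter, and 15 had RAD21 in both lists, as before the filter. A distance of 5 kb gave 7 genes. Windows of 20 kb and 100 kb gave 34 and 61 sites, 17 and 30 of them in all 3 lists. Requiring overlap of 50% of the shorter peak changed none of the 3 site counts. With thresholds of 20 and 40 points, added after the data were seen, 6 and 3 sites shifted rank in InsCBS5-10 in place of 5, and 9 and 6 in DelCBS7-10 in place of 9. With 1 library per group no replicate could be left out, and genotype, culture and library cannot be told apart. No paired analysis was possible because the groups have 1 library each.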
